A study of Mus musculus with 21 samples.

Results

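The genes described here encode core parts and regulators of the splicing machinery. They were chosen by name alone: every gene of the deposited normalised expression table whose symbol begins with Srsf and a digit, Hnrnp, Snrp, Sf3a, Sf3b, Prpf or U2af. This gave 67 genes of the 15249 in that table. By role they comprise 20 heterogeneous nuclear ribonucleoproteins (hnRNPs), 13 Prp proteins, 12 Sm and other small nuclear ribonucleoprotein (snRNP) genes, 11 SR proteins, 9 U2 snRNP proteins of the SF3A and SF3B complexes, and 2 subunits of the U2 auxiliary factor. In the annotation 66 are protein coding, and 1 (Snrpert) is a processed pseudogene. For 21 of the 67 an exon overlaps a gene of the opposite strand and for 5 a gene of the same strand, so part of their counts could belong to the neighbour.

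Splicing removes introns from pre-mRNA. Sm proteins form rings around the small nuclear RNAs of the spliceosome, the SF3A and SF3B complexes and U2AF help to recognise the branch point and the 3′ splice site, and Prp proteins build, remodel and activate the assembled machine. SR proteins mostly promote the use of the exons they bind, whereas hnRNPs coat nascent transcripts and often oppose exon use. Activated T cells enlarge and change the splicing of many genes, including that of the CD45 gene Ptprc.

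The study asked how the strength of antigen receptor stimulation shapes the early response of CD4+ T cells in vivo. The mice, labelled Tg4 Tiger Nr4a3-Tocky, carry the transgenic Tg4 receptor, specific for a peptide of myelin basic protein (MBP), an Il10-GFP reporter and a Timer protein, reporting Nr4a3 expression, whose fluorescence matures from blue to red. Mice received 0.8 or 80 µg of [4Y] MBP peptide subcutaneously without adjuvant, and splenic CD4+ T cells were sorted after 4, 12 or 24 h and profiled by 3′ mRNA sequencing. Together with unimmunised controls this gave 7 groups of 3 mice, 21 libraries in all, all of the same transgenic background.

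The sort took cells with blue Timer fluorescence alone at 4 h, with both colours at 12 h and with red alone at 24 h. Time and sort gate therefore cannot be told apart, and the gate for controls is not given in the sources used here. Ages are likewise not given there. Mice of either sex were included, and groups were assigned at random within a litter and within a sex. The transgenic receptor means that the cells share 1 specificity and do not represent a natural repertoire. Library totals ranged from 2352800 to 6244279 counts. The 0.8 µg replicate 3 of 12 h stood apart from its group by the chi-square of its counts over all genes, per degree of freedom. This was 14.8 and 14.4 against replicates 1 and 2, which differed by 3.35 from each other. Pairs within the other groups gave 3.47 to 9.49. The largest of these, 8.7 and 9.49, both involved 80 µg replicate 2 of 12 h, where replicates 1 and 3 differed by 4.9. All 8 CD4 T cell markers examined (such as Cd4, Cd3e and Trac) were detected in every group. Their summed level was 3090 to 3340 CPM (counts scaled to a common library total) in controls, 1870 to 2120 at 4 h, 1580 to 1910 at 12 h and 2620 to 3080 at 24 h. Of the 6 B cell markers, the summed level was 379 to 403 CPM in controls, 31.8 to 85.3 in the 4 and 12 h groups and 278 to 399 in the 24 h groups, with Cd79a at 0 in 3 groups. Both sums moved with time in the opposite direction to many splicing genes, and their part in the changes was not tested. Over all libraries, 5 dendritic cell markers summed to at most 2.46 CPM, 4 granulocyte markers to at most 3.84, 5 macrophage markers to 2.08 to 32.0, 2 CD8 markers to 13.1 to 51.3 and 5 erythroid markers to 5.31 to 212. The 4 NK cell markers summed to 2.13 to 3.05 in controls and reached 102 in the 0.8 µg group at 12 h, where Ncr1 and Klre1 were at 0.

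Expression is given as normalised counts, the read counts divided by a size factor per library, and differences as fitted log2 fold changes with standard errors. A gene passed the test at a DESeq2 adjusted p below 0.05, and it is said to be called when it also differed by more than 1 on the log2 scale, a 2-fold difference. Of the 67 genes, 65 averaged at least 20 normalised counts over the libraries. The exceptions were Srsf12, with 38 counts over all libraries, and Snrpert, with 23. Levels are shares of a library's reads, so an equal change of all RNA per cell was not measured, and in sorted populations fewer cells of a kind and less RNA per cell cannot be told apart. The counts report the amount of each transcript and not which isoform was spliced.

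Because most of the genes moved together, they were examined for 5 short promoter sequences in the RefSeq windows that run from 250 bases before to 50 bases after a start site (GRCm38.p6). Of the 67 genes, 57 had a window. The ETS-type core CCGGAAG, read on both strands, was present for 20 of the 57 (35.1%), beside 20.8% of the 9912 fitted genes with a window and 9.93% of all 27025 genes of the table. The GC box GGGCGG was present for 70.2% of the 57 and 67.2% of the fitted genes, the E-box CACGTG for 15.8% and 11.8%, TATAAA for 10.5% and 8.59%, and the NRF1 motif for 1.75% and 2.45%. These shares are descriptions of letters in a window and show no binding. The stretches below, from 6 of the 20 genes and chosen after their expression was seen, show the core in capitals. They are given because Prpf19, Sf3a2, Snrpc, Srsf7 and Hnrnpd were higher than control in all 6 groups while Srsf5, with the same core, was lower in 4 of them. Each reads 5′ to 3′ on the strand of the gene.
Prpf19, chr19:10895113-10895219, plus strand: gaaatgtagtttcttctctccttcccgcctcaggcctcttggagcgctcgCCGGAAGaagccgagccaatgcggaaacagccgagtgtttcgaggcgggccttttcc
Sf3a2, chr10:80798609-80798715, plus strand: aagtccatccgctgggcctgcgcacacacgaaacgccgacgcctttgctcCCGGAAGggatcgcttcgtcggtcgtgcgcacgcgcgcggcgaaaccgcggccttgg
Snrpc, chr17:27839998-27840086, plus strand: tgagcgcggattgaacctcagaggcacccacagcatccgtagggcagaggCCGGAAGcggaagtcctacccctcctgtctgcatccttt
Srsf7, chr17:80207467-80207555, minus strand: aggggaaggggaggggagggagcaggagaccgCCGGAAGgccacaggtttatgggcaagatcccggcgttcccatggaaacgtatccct
Hnrnpd, chr5:99979060-99979166, minus strand, reverse complement of the core: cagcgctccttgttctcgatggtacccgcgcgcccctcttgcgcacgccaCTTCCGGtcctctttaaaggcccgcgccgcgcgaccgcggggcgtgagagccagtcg
Srsf5, chr12:80945426-80945498, plus strand: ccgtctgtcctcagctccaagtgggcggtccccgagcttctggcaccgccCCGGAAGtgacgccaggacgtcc

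The first question was which of these genes differ between antigen-exposed and unimmunised CD4+ T cells. Most rose at both doses. Their summed share of all counts went from 1.033% ± 0.020 (SD, n = 3) in controls to 1.872% ± 0.082 and 1.933% ± 0.022 at 4 h after 0.8 and 80 µg. It was 2.043% ± 0.159 and 1.935% ± 0.095 at 12 h and 1.370% ± 0.078 and 1.275% ± 0.059 at 24 h. The highest control library (1.045%) lay below the lowest immunised one (1.228%), so no immunised library overlapped the controls. At 12 h after 0.8 µg, replicate 3 lay at 1.859% and the other two at 2.134% each. Without replicate 3, 42 genes in place of 41 were called against control at that dose and time.

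**Figure D1:**
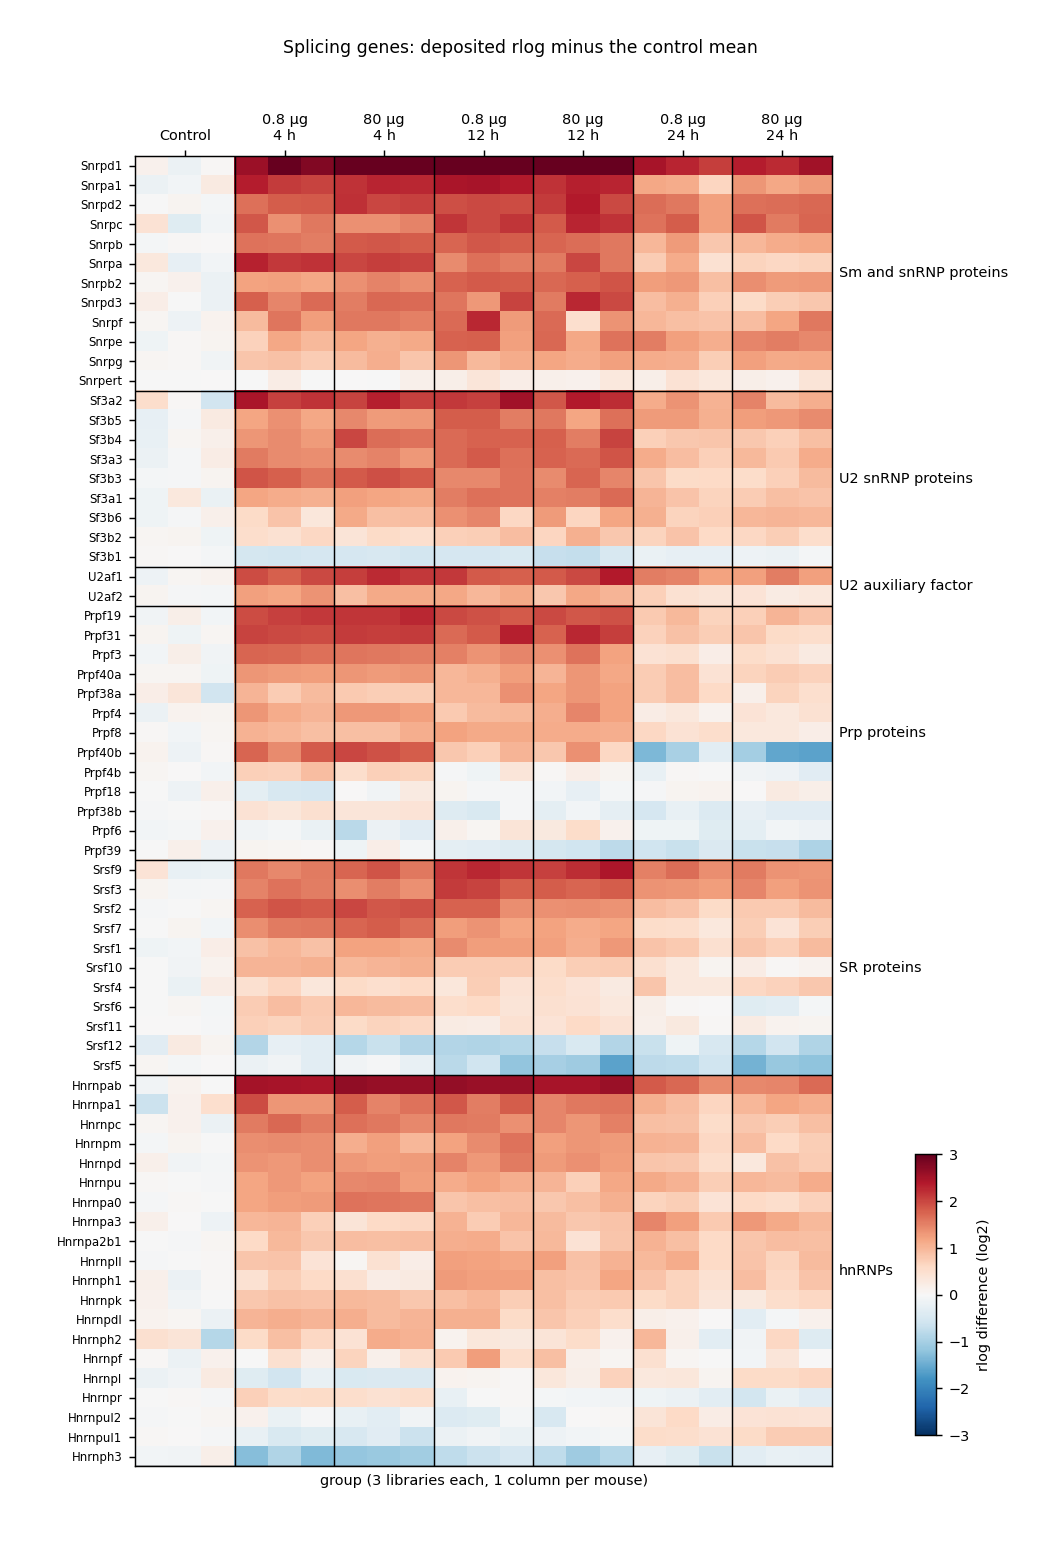
Deposited rlog values (log2 scale) of the 67 genes in each of the 21 libraries, as the difference from the control mean, with genes in rows grouped by role and ordered by their mean difference. The colour scale ends at 3 in either direction, and the differences run from -1.62 to 3.37. Most rows are red in every immunised group and paler at 24 h, while Srsf5, Srsf12, Hnrnph3, Sf3b1 and Prpf39 are blue in several groups.

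At 4 h, 37 of 66 tested genes were called higher after 0.8 µg and 1 was called lower, where 17.3% of all genes tested were called higher and 23.4% lower. After 80 µg, 39 of 66 were called higher and 2 lower, against 18.4% and 25.1% of all genes. At 12 h the counts were 40 higher and 1 lower of 66 after 0.8 µg (all genes 17.2% and 20.5%), and 40 higher and 1 lower of 67 after 80 µg (all genes 17.8% and 20.1%). The share called higher was thus 56.1% to 60.6% of the tested genes at 4 and 12 h. At 24 h it was 15 higher and 0 lower of 66 after 0.8 µg (all genes 11.5% and 5.84%) and 20 higher and 2 lower of 66 after 80 µg (all genes 12.3% and 7.91%). With library totals as size factors the latter split was 12 higher and 4 lower. For the 0.8 µg comparison at 24 h, DESeq2 gave 55 genes at an unadjusted p under 0.05 in either direction, beside 43.3% of all genes, 6 lower genes passed the adjusted p without the fold limit, beside 15.2%, and edgeR and limma-voom called 16 and 17 genes in all.

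By the adjusted p alone, 59 genes passed in each 4 h comparison (all genes 54.6% after 0.8 µg and 57.1% after 80 µg). At 12 h 58 and 57 passed (all genes 53.1% and 52.7%), and at 24 h 54 in each comparison (all genes 36% and 39.1%). The median log2 fold change of the genes was 1.17 and 1.17 at 4 h, 1.22 and 1.19 at 12 h, and 0.73 and 0.71 at 24 h. Over all genes it was -0.13, -0.15, -0.11, -0.11, 0.0 and -0.0032 in the same order. All 6 comparisons share the same 3 control libraries. In all 6, 43 of the 67 genes were higher by the adjusted p, beside 9.37% of all genes tested in all 6. The control group had the lowest mean of the 7 groups for 51 genes.

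**Figure D2:**
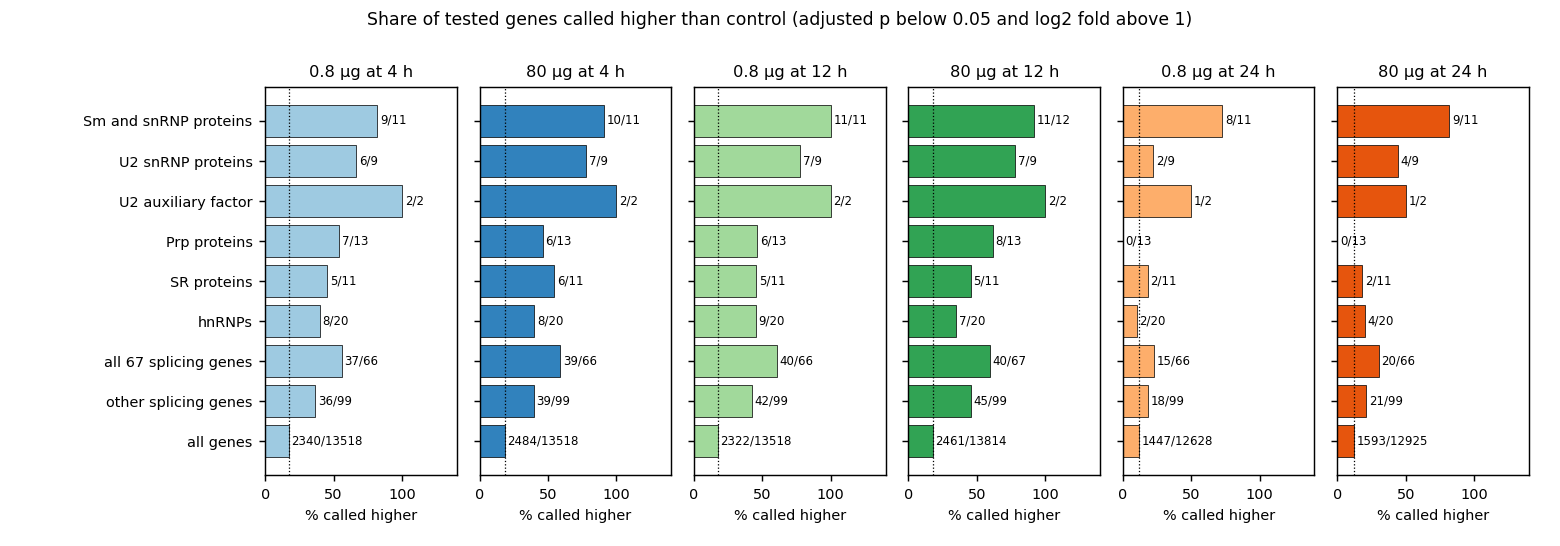
Percentage of tested genes called higher than control, by role, for the 67 genes, for 99 other splicing genes and for all genes, in each of the 6 immunised groups, with the numbers called and tested beside each bar and the all-gene share as a dotted line. Sm and snRNP genes keep a high share at 24 h (8 and 9 of 11), while none of the 13 Prp genes is called higher there.

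The counts by role below stand against the shares of all genes called higher, which were 17.3% and 18.4% at 4 h, 17.2% and 17.8% at 12 h and 11.5% and 12.3% at 24 h. Of the Sm and snRNP genes, 9 and 10 of 11 were called higher at 4 h, 11 of 11 and 11 of 12 at 12 h, and 8 and 9 of 11 at 24 h, in each case after 0.8 and 80 µg. Snrpert, the pseudogene, was the 1 Sm and snRNP gene that was never called. Snrpd1, which encodes the Sm ring protein SmD1, showed the largest rise in all 6 comparisons. It measured 189, 152 and 174 normalised counts in the 3 control libraries. At 4 h it measured 1055, 1449 and 1226 after 0.8 µg and 1469, 1477 and 1488 after 80 µg, and at 12 h 1835, 1786 and 1546 (0.8 µg) and 1680, 1539 and 1872 (80 µg). At 24 h it measured 991, 868 and 749 (0.8 µg) and 917, 837 and 1034 (80 µg). Every immunised library was at least 3 times above every control library, and the 24 h libraries lay below all those of 12 h. The log2 fold change over control was 2.84 ± 0.14 (adjusted p = 5.37e-95) and 3.09 ± 0.14 (adjusted p = 2.19e-113) at 4 h, 3.31 ± 0.14 (adjusted p = 3.55e-130) and 3.29 ± 0.13 (adjusted p = 1.35e-128) at 12 h, and 2.33 ± 0.14 (adjusted p = 9.97e-63) and 2.43 ± 0.14 (adjusted p = 9.28e-69) at 24 h.

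Proteins of single snRNPs followed. Snrpa1, the A′ protein of U2 snRNP, rose from 92 ± 17 normalised counts (SD, n = 3) in controls to 532 ± 18.4 and 468 ± 28.9 at 12 h after 0.8 and 80 µg, log2 fold changes of 2.53 ± 0.15 and 2.35 ± 0.15. Snrpa, the A protein of U1 snRNP, had its highest group means at 4 h, where it had risen by 2.31 ± 0.19 and 2.12 ± 0.19. It stood at 0.84 ± 0.20 and 0.68 ± 0.20 at 24 h. Snrpc, the C protein of U1 snRNP, was instead highest at 12 h (2.12 and 2.13) and stayed at 1.59 and 1.75 at 24 h. The group means of Snrpa and Snrpc were thus highest at different times, a difference between the genes that was not tested. From 4 to 12 h after 80 µg, 0 Sm and snRNP genes passed as lower. The Snrpa libraries of those times overlapped at that dose. After 0.8 µg, 1 Sm and snRNP gene passed as lower from 4 to 12 h. There Snrpa measured 342, 299 and 309 normalised counts at 4 h and 178, 210 and 195 at 12 h, without overlap. Snrpb, which encodes SmB, rose by 1.61 ± 0.10 and 1.87 ± 0.10 at 4 h and remained 1.07 ± 0.10 and 1.11 ± 0.10 above control at 24 h. Exons of Snrpa overlap a gene on the opposite strand and those of Snrpa1 a gene on the same strand, and the strand setting of the counting is not given in the sources used here.

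Of the 9 U2 snRNP genes, 6 and 7 were called higher at 4 h, 7 and 7 at 12 h, and 2 and 4 at 24 h. Sf3b3, a large scaffold of the SF3B complex, had its highest group means at 4 h, where it had risen by 1.81 ± 0.13 and 1.92 ± 0.13. From 4 to 12 h after 0.8 µg, 0 U2 snRNP genes passed as lower, and the Sf3b3 libraries of those times overlapped. After 80 µg, 1 U2 snRNP gene passed as lower between those times. There Sf3b3 measured 803, 866 and 808 normalised counts at 4 h and 597, 750 and 618 at 12 h, without overlap. Sf3a3, a subunit of the SF3A complex, was highest at 12 h with 1.80 ± 0.14 and 1.85 ± 0.14. Sf3b1, the subunit that clamps the branch point (chr1:54985169-55027481, minus strand), went the other way from the other 8. It measured 3085, 3026 and 2861 normalised counts in controls, 2074, 2041 and 2113 (0.8 µg) and 2115, 2143 and 2017 (80 µg) at 4 h, and 2094, 2107 and 2169 (0.8 µg) and 1832, 1812 and 2136 (80 µg) at 12 h, at 0.8 and 80 µg. At 24 h it was back to 2593, 2515 and 2524 (0.8 µg) and 2670, 2645 and 2853 (80 µg). All 18 immunised libraries lay below the lowest control library, those of 24 h least far. The log2 fold changes were -0.53 ± 0.07 (adjusted p = 1.61e-14) and -0.52 ± 0.07 (adjusted p = 3.46e-14) at 4 h and -0.49 ± 0.07 (adjusted p = 4.4e-13) and -0.64 ± 0.07 (adjusted p = 6.26e-21) at 12 h. At 24 h Sf3b1 fell by 0.23 after 0.8 µg (adjusted p = 0.0017), a test it did not pass with edgeR (-0.24), and measured -0.14 ± 0.07 (adjusted p = 0.0869) after 80 µg.

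Both U2AF subunits were called higher at 4 and 12 h. U2af1, which reads the AG at the 3′ splice site, measured 57.7, 67.9 and 70 normalised counts in controls. At 4 h it measured 278, 245 and 278 after 0.8 µg and 301, 339.9 and 310.4 after 80 µg. The immunised libraries of 4 h did not overlap the controls, and the log2 fold changes were 2.02 ± 0.19 (adjusted p = 3.3e-26) and 2.27 ± 0.18 (adjusted p = 2.05e-33). U2af2, which binds the polypyrimidine tract, rose less, by 1.27 ± 0.11 and 1.08 ± 0.11 at 4 h. At 24 h U2af1 was still called higher (1.50 and 1.42), whereas U2af2 stood at 0.53 and 0.33 and passed without reaching the fold limit.

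Of the 13 Prp genes, 7 and 6 were called higher at 4 h, 6 and 8 at 12 h, and 0 at 24 h, where DESeq2 gave 9 and 10 genes at an unadjusted p under 0.05, beside 43.3% and 46.1% of all genes. Prpf19, a ubiquitin ligase that activates the spliceosome, measured 89.7, 112 and 91.4 normalised counts in controls, 405, 427 and 452 after 0.8 µg and 463, 459 and 498 after 80 µg at 4 h. Its log2 fold changes were 2.11 ± 0.14 (adjusted p = 8.79e-51) and 2.26 ± 0.14 (adjusted p = 4.03e-59). By 24 h the libraries had come down to 173, 198 and 158 (0.8 µg) and 164, 205 and 182 (80 µg), still above the controls. Prpf31, of the U4/U6 snRNP, followed the same course, with 2.07 ± 0.18 and 2.17 ± 0.18 at 4 h and 0.82 ± 0.18 and 0.68 ± 0.18 at 24 h. Prpf8, at the catalytic centre of the spliceosome, rose about 2-fold, by 1.00 ± 0.10 and 0.99 ± 0.10 at 4 h and 1.20 ± 0.10 and 1.13 ± 0.10 at 12 h. Prpf4b, a kinase of the spliceosome, was higher at 4 h alone by the adjusted p (0.79 and 0.64), with 0.08 and 0.11 at 12 h.

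Other Prp genes fell below control at later times. Prpf39, a U1 snRNP-associated protein, stood at 0.04 ± 0.12 and 0.01 ± 0.12 at 4 h, fell by 0.35 and 0.65 at 12 h (adjusted p = 0.00773 and 2.86e-07), and by 0.60 and 0.80 at 24 h (adjusted p = 7.29e-06 and 4.31e-10). The fall at 12 h after 0.8 µg missed the threshold without control replicate 2 (-0.26). Prpf40b, a relative of the yeast U1 snRNP protein Prp40 (chr15:99295087-99317018, plus strand), went from above to below control. It measured 34, 27.4 and 31.4 normalised counts in controls, 121, 94.8 and 132 (0.8 µg) and 149, 138 and 129 (80 µg) at 4 h, 58.8, 54.9 and 70.5 (0.8 µg) and 59.4, 91.7 and 51.5 (80 µg) at 12 h, and 8.76, 13.1 and 23.7 (0.8 µg) and 12.1, 7.36 and 7.4 (80 µg) at 24 h. All libraries of 4 and 12 h were above the controls and all those of 24 h below them. The log2 fold changes were 1.87 ± 0.29 (adjusted p = 5.44e-10) and 2.12 ± 0.29 (adjusted p = 8.72e-13) at 4 h, and -0.99 ± 0.34 (adjusted p = 0.0123) and -1.76 ± 0.36 (adjusted p = 8.07e-06) at 24 h. The fall at 24 h after 0.8 µg no longer passed without control replicate 1 (-0.92) or without 0.8 µg replicate 1 (-0.71) or 2 (-0.88).

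**Figure D3:**
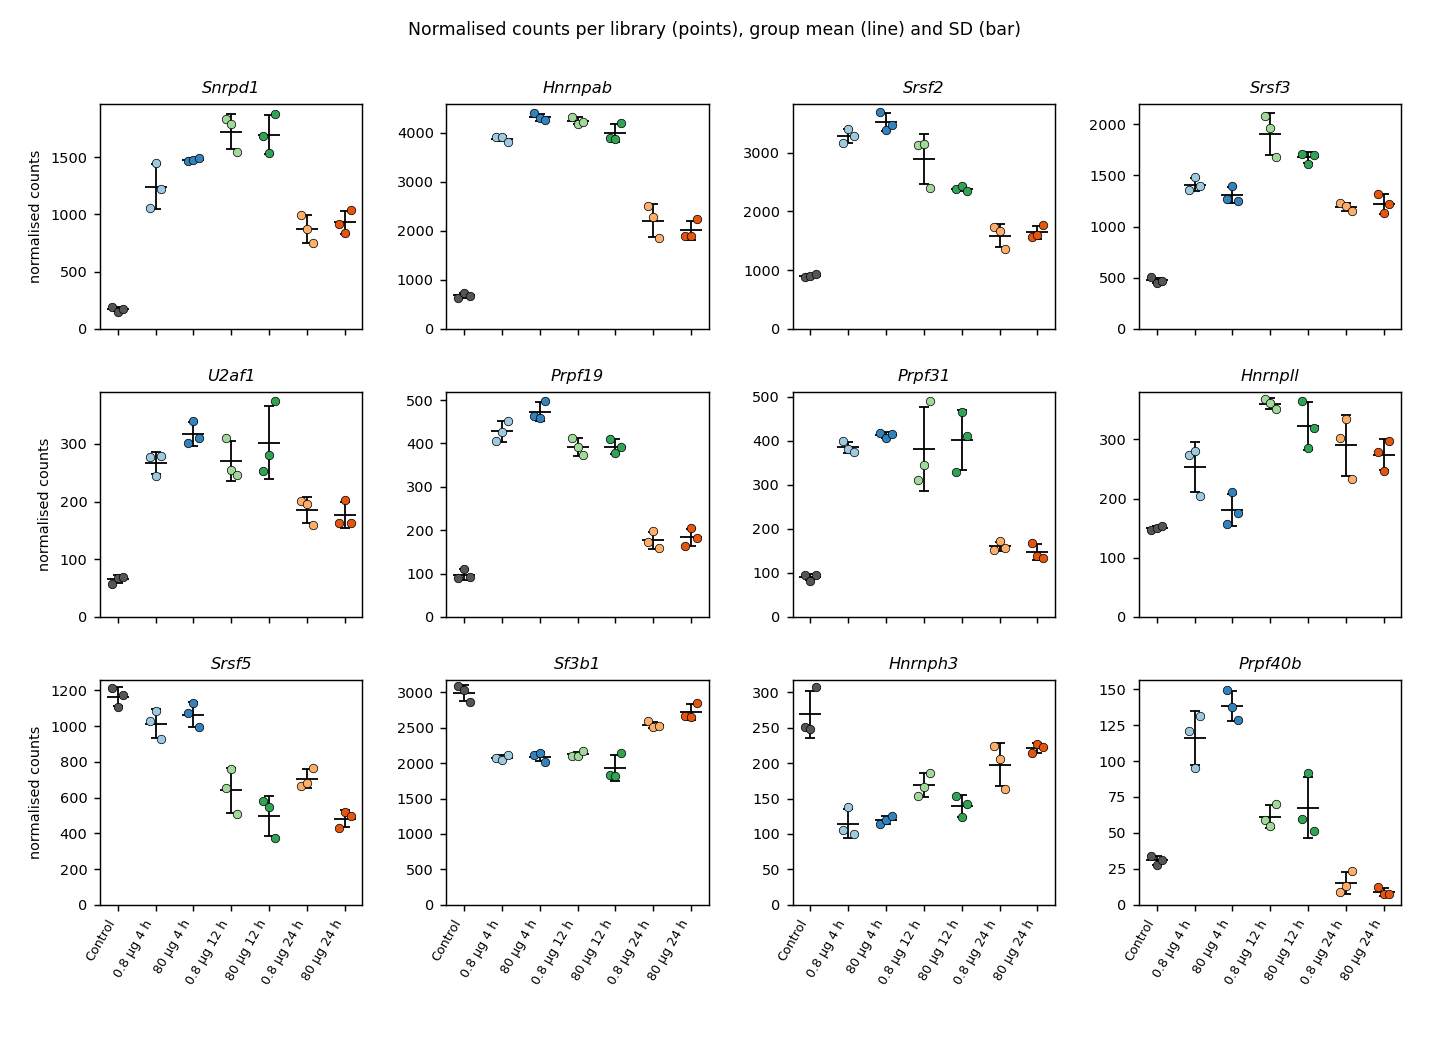
Normalised counts of 12 genes in each library (points, 3 mice a group) with the group mean (line) and SD (bar), with each vertical axis starting at 0. Snrpd1, Hnrnpab, Srsf2, Srsf3, U2af1, Prpf19 and Prpf31 sit above control in every immunised library, while Srsf5, Sf3b1, Hnrnph3 and Prpf40b fall below control in some or all groups.

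Of the 11 SR genes, 5 and 6 were called higher at 4 h, 5 and 5 at 12 h, and 2 and 2 at 24 h. The last were 18.2% of them at each dose, beside 11.5% and 12.3% of all genes. Srsf2, a broad splicing activator (chr11:116849901-116853094, minus strand), measured 881, 904 and 939 normalised counts in controls, 3155, 3403 and 3284 after 0.8 µg and 3685, 3388 and 3472 after 80 µg at 4 h. It was highest at this time, with log2 fold changes of 1.85 ± 0.10 (adjusted p = 3.42e-77) and 1.95 ± 0.10 (adjusted p = 4.37e-86), and no immunised library overlapped the controls. Its exons overlap 2 genes of the opposite strand. Srsf3, the smallest of the classical SR proteins and a regulator of mRNA export, was highest at 12 h, with 2080, 1965 and 1681 after 0.8 µg and 1706, 1615 and 1704 after 80 µg beside 505, 452 and 464 in controls. Its log2 fold changes there were 2.01 ± 0.09 (adjusted p = 1.24e-103) and 1.82 ± 0.09 (adjusted p = 5.19e-85). Srsf7 resembled Srsf2, with 1.53 ± 0.10 and 1.76 ± 0.10 at 4 h and 1.28 ± 0.10 and 1.18 ± 0.10 at 12 h. Srsf1, the prototype of the family, rose by 0.93 ± 0.11 and 1.19 ± 0.11 at 4 h and 1.33 ± 0.11 and 1.23 ± 0.11 at 12 h.

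Srsf5, an SR protein of chr12:80945504-80950507 (plus strand, GRCm38), was called lower after 80 µg at 12 and 24 h. It measured 1212, 1109 and 1173 normalised counts in controls and 1032, 1084 and 926 (0.8 µg) and 1074, 1127 and 993 (80 µg) at 4 h after 0.8 and 80 µg. At 12 h it measured 656, 759.7 and 508 (0.8 µg) and 578, 545 and 371 (80 µg), and at 24 h 666, 684 and 766 (0.8 µg) and 429.6, 520.3 and 496 (80 µg). Of the 6 libraries of 4 h, 1 was within the control range and the others lay below the lowest control, down to 926. The 12 and 24 h libraries all lay well below the lowest control. The log2 fold change was -0.20 ± 0.14 (adjusted p = 0.218) and -0.13 ± 0.14 (adjusted p = 0.438) at 4 h, -0.85 ± 0.14 (adjusted p = 4.52e-09) and -1.22 ± 0.14 (adjusted p = 2.63e-17) at 12 h, and -0.72 ± 0.14 (adjusted p = 1.87e-06) and -1.26 ± 0.14 (adjusted p = 3.65e-18) at 24 h. Srsf6 rose at 4 h (0.84 ± 0.09 and 0.97 ± 0.09) and at 24 h stood at 0.07 ± 0.09 (adjusted p = 0.597) after 0.8 µg and -0.24 ± 0.09 (adjusted p = 0.0339) after 80 µg. The last value no longer passed with edgeR (-0.22), limma-voom (-0.22) or TMM factors (-0.22), nor without control replicate 1 (-0.24) or 2 (-0.20) or 80 µg replicate 1 (-0.18) or 2 (-0.19). Srsf12, with 3, 9 and 5 counts in the control libraries and 0 to 5 in the others, was called lower after 80 µg at 4 h and after 0.8 µg at 12 h, and at such counts no fold is given.

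Of the 20 hnRNPs, 8 and 8 were called higher at 4 h, 9 and 7 at 12 h, and 2 and 4 at 24 h, the last near the 11.5% and 12.3% of all genes. Hnrnpab, an RNA- and DNA-binding hnRNP (chr11:51600100-51606847, minus strand), had the largest rise of this role in all 6 comparisons. It measured 636, 739 and 675 normalised counts in controls, 3915, 3907 and 3818 after 0.8 µg and 4395, 4302 and 4255 after 80 µg at 4 h, and 2498, 2285 and 1845 (0.8 µg) and 1885, 1899 and 2238 (80 µg) at 24 h. The immunised libraries were all above the controls, and those of 24 h all below those of 4 h. The log2 fold changes were 2.5 ± 0.09 (adjusted p = 8.07e-152) and 2.65 ± 0.09 (adjusted p = 6.55e-172) at 4 h and 1.69 ± 0.09 (adjusted p = 4.32e-68) and 1.55 ± 0.09 (adjusted p = 7.23e-58) at 24 h. One or more of its exons overlap Phykpl on the opposite strand. Hnrnpd, also known as AUF1 and a binder of AU-rich elements, rose by 1.36 ± 0.12 and 1.29 ± 0.12 at 4 h. Hnrnpk rose by 0.85 ± 0.10 and 0.93 ± 0.10, and Hnrnpa2b1 by 0.80 ± 0.12 and 0.93 ± 0.12. Hnrnpa1 rose by 1.65 ± 0.25 and 1.73 ± 0.24, but it had only 2577 counts over all libraries and has near-identical copies in the genome, so its level is uncertain.

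Hnrnpll, which represses variable exons of Ptprc in lymphocytes, measured 147, 150.1 and 154 normalised counts in controls. At 4 h it measured 275, 281 and 204 after 0.8 µg and 157, 211 and 175 after 80 µg, and at 12 h 369, 362 and 351 (0.8 µg) and 365, 285 and 319 (80 µg). All libraries of 4 and 12 h were above the highest control, and at 4 h the libraries of the 2 doses overlapped. The log2 fold changes were 0.74 ± 0.17 (adjusted p = 2.44e-05) and 0.27 ± 0.17 (adjusted p = 0.163) at 4 h and 1.25 ± 0.16 (adjusted p = 7.78e-14) and 1.09 ± 0.16 (adjusted p = 8.58e-11) at 12 h. Hnrnph1 rose most at 12 h, by 1.28 ± 0.15 and 1.02 ± 0.15, beside 0.62 ± 0.15 and 0.33 ± 0.15 at 4 h, the last of which lost the threshold in 17 alternative fits (0.18 to 0.38). Its paralogue Hnrnph3 fell. It measured 252, 248 and 307 in controls, 105, 138 and 100.3 after 0.8 µg and 113, 119 and 125 after 80 µg at 4 h, and 224, 205 and 164 (0.8 µg) and 214, 227 and 223 (80 µg) at 24 h. All immunised libraries, with those of 12 h at 154, 166 and 187 (0.8 µg) and 153, 123 and 143 (80 µg), lay below the controls. The libraries of 4 and 12 h overlapped after 80 µg but not after 0.8 µg, where those of 4 h were lower. The fitted changes were -1.23 ± 0.17 (adjusted p = 1.1e-12) and -1.16 ± 0.16 (adjusted p = 7.12e-12) at 4 h and -0.43 ± 0.16 (adjusted p = 0.0182) and -0.27 ± 0.15 (adjusted p = 0.153) at 24 h. The fall at 24 h after 0.8 µg missed the threshold without control replicate 3 (-0.33) or 0.8 µg replicate 3 (-0.32). Hnrnpul1, a relative of hnRNP U, was lower at 4 h (-0.34 ± 0.09 and -0.48 ± 0.09) and higher at 24 h (0.51 ± 0.09 and 0.71 ± 0.09).

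In all, 13 of the 67 genes were lower than control in at least 1 comparison by the adjusted p, beside 45.2% of all genes, and 0 were lower in all 6, beside 6.01%. The 13 were Hnrnph3, Hnrnpl, Hnrnpr, Hnrnpul1, Prpf18, Prpf38b, Prpf39, Prpf40b, Prpf6, Sf3b1, Srsf12, Srsf5 and Srsf6. Hnrnph2 passed in no comparison with control, as did Snrpert wherever it was tested. For scale, 99 other splicing genes that the name rule does not match were counted by the same fit. Of these, 36 and 39 were called higher and 9 and 8 lower at 4 h (all genes 17.3% and 18.4% higher and 23.4% and 25.1% lower). At 12 h 42 and 45 were called higher and 5 and 5 lower (all genes 17.2% and 17.8% higher and 20.5% and 20.1% lower). At 24 h 18 and 21, or 18.2% and 21.2%, were called higher and 0 lower (all genes 11.5% and 12.3% higher and 5.84% and 7.91% lower), and 15 at each dose were lower by the DESeq2 adjusted p alone, close to the 15.2% and 16.9% of all genes. Among the subsets of these genes, only the SR protein kinases had a negative median log2 fold change at 4 h. The medians of the other subsets ran from 0.62 (regulators, 0.8 µg) to 1.94 (exon junction and cap genes, 80 µg). The 6 SR protein kinases had a median of -0.36 and -0.54 at 4 h, with 2 called lower and 0 higher at each dose, where 23.4% and 25.1% of all genes were called lower. At 12 h the medians were -1.11 and -1.13, with 3 called lower and 0 higher at each dose, where 20.5% and 20.1% of all genes were called lower. DESeq2 gave 5 of the 6 at an unadjusted p under 0.05 there, all of them lower and passing the adjusted p, as 27.9% and 27.4% of all genes did. At 24 h the medians were -0.57 and -0.55 with 0 called, although 5 and 4 passed the DESeq2 adjusted p as lower, beside the same 15.2% and 16.9% of all genes. From 12 to 24 h, 2 and 3 of the 6 were called higher, as were 17.1% and 16.7% of all genes.

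The next question was how the genes move between the times. From 4 to 12 h the splicing genes that passed went in both directions, as did those over all genes. After 0.8 µg, 19 of 65 passed as higher and 12 as lower at 12 h, beside 20.9% and 18.2% of all genes, and 0 were called although 20.5% of all genes were. DESeq2 gave 41 of the 65 at an unadjusted p under 0.05, beside 46.2% of all genes, and edgeR and limma-voom called 0 as well, and 1 (Prpf40b, lower) was called without 0.8 µg replicate 3 of 12 h. After 80 µg, 14 of 66 were higher and 15 lower, beside 23.6% and 19.3% of all genes. There 2 were called, Srsf5 at -1.09 ± 0.14 (adjusted p = 1.16e-13) and Prpf40b at -1.01 ± 0.26 (adjusted p = 0.000425), both lower, beside 9.1% of all genes called lower and 24.8% called in either direction, and the count was 0 without 80 µg replicate 3 of 12 h, 1 without replicate 1 of 12 h or replicate 1 or 2 of 4 h, and 1 higher and 0 lower with library totals as size factors. By role, 5 Sm and snRNP genes were higher and 1 lower after 0.8 µg, whereas 3 SR genes were higher and 5 lower. Srsf3 rose further by 0.44 ± 0.09 and 0.36 ± 0.09 after 0.8 and 80 µg, Srsf7 fell by 0.26 and 0.58 (adjusted p = 0.0191 and 4.28e-09; the first did not pass without 0.8 µg replicate 3 of 12 h, at -0.22), and Hnrnpa0 fell by 0.37 and 0.69 (adjusted p = 4e-05 and 2.64e-16).

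From 12 to 24 h most went down. After 0.8 µg, 42 of 66 passed as lower and 3 as higher, beside 19.1% and 24.9% of all genes, and after 80 µg 40 were lower and 4 higher, beside 19.8% and 24.9%. The genes called were 6 and 9, all lower, beside 9.48% and 10.5% of all genes called lower and 26.6% and 27.2% called in either direction. These counts moved with the settings. With library totals as size factors 12 and 17 genes were called lower, with replicate 1 left out of every group 10 were called after 0.8 µg, and with replicate 2 left out of every group 5 were called after 80 µg. Called at both doses were Prpf19, Prpf3, Prpf31, Prpf40b, Sf3a2 and Snrpa1, and after 80 µg also Sf3b4, Snrpa and Snrpd3. Prpf40b fell most, with a change of -1.96 ± 0.32 (adjusted p = 1.05e-08) after 0.8 µg and -2.87 ± 0.34 (adjusted p = 7.43e-16) after 80 µg. Snrpa1 fell by 1.49 and 1.04 (adjusted p = 3e-27 and 1.35e-14), and Prpf31 by 1.24 and 1.45 (adjusted p = 3.71e-13 and 2.27e-18). Sf3b1 moved back up by 0.26 ± 0.07 and 0.50 ± 0.07, and Hnrnph3 by 0.66 ± 0.16 after 80 µg. The highest of the 7 group means was that of 0.8 µg at 12 h for 19 genes, 80 µg at 4 h for 16, 0.8 µg at 4 h for 11, 80 µg at 12 h for 9, 80 µg at 24 h for 6, 0.8 µg at 24 h for 2, and the control for 4.

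**Figure D4:**
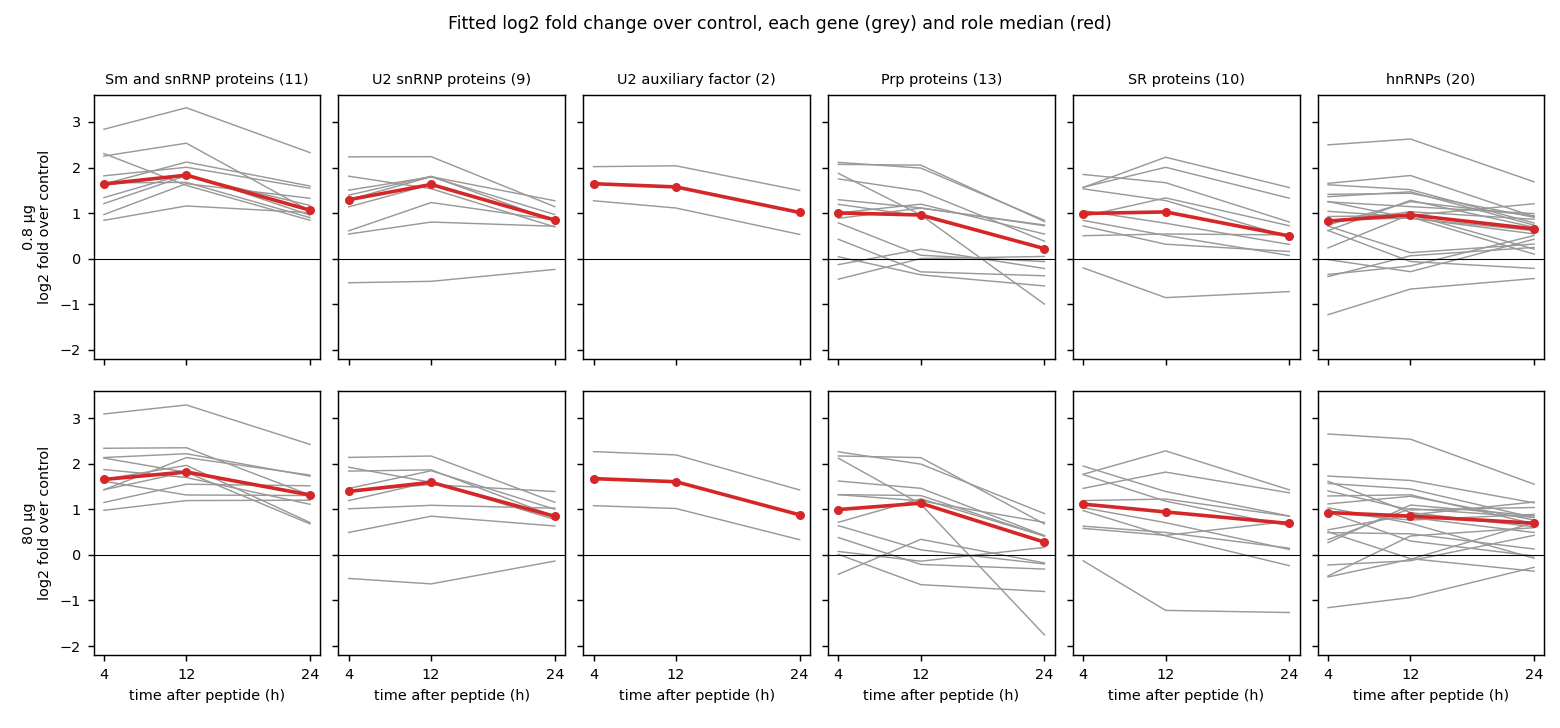
Fitted log2 fold change over control (vertical axis) at 4, 12 and 24 h (horizontal axis) for each gene (grey) and the median of its role (red), after 0.8 µg (upper row) and 80 µg (lower row), leaving out Srsf12 and Snrpert. The Sm, U2 snRNP and U2AF medians lie above 1 at 4 and 12 h, and the Prp median comes down to 0.22 and 0.28 at 24 h.

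The last question was whether the 100-fold difference in dose changed these genes. At each time 0 of 65 tested genes were called between 80 and 0.8 µg, where 5.85% of all genes tested were called at 4 h, 2.79% at 12 h and 1.56% at 24 h. DESeq2 gave 13, 11 and 7 genes at an unadjusted p under 0.05, beside 21.4%, 16.9% and 17% of all genes, and edgeR and limma-voom called 0 at each time. By the adjusted p alone, 3 genes were higher and 1 lower after 80 µg at 4 h, beside 5.81% and 6.19% of all genes. At 12 h 0 passed, beside 3.67% higher and 2.6% lower, and at 24 h 2 were lower and 0 higher, beside 2.2% and 3.73%. The shares of the splicing genes that passed were below those of all genes, except for the lower genes at 24 h.

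Hnrnpa0, an hnRNP that binds AU-rich mRNAs, had the smallest adjusted p. At 4 h it measured 4410, 4628 and 4734 normalised counts after 0.8 µg and 6015, 5877 and 5785 after 80 µg. The groups did not overlap, and the difference was 0.36 ± 0.08 (adjusted p = 0.000156). Sf3b4, a subunit of the SF3B complex, measured 316, 337 and 306 (0.8 µg) and 510.4, 408 and 390.1 (80 µg), without overlap, a difference of 0.44 ± 0.14 (adjusted p = 0.0148). Prpf18, which acts in the second step of splicing, measured 130.2, 113 and 111 (0.8 µg) and 164, 149 and 197 (80 µg), also without overlap, a difference of 0.52 ± 0.16 (adjusted p = 0.0141). Here the high-dose libraries resembled the controls (159.8, 146 and 183) and the low-dose ones lay below them. Hnrnpll was lower after 80 µg, by 0.47 (adjusted p = 0.0313), with groups that overlapped. It missed the threshold with edgeR (-0.46) and limma-voom (-0.45), and without 0.8 µg replicate 1 (-0.41) or 2 (-0.40) or 80 µg replicate 1 (-0.39) or 3 (-0.44). Sf3b4 missed it without 0.8 µg replicate 1 (0.44) or 3 (0.41) or 80 µg replicate 1 (0.32), and Prpf18 without 0.8 µg replicate 2 (0.49) or 3 (0.48) or 80 µg replicate 3 (0.40).

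At 24 h Srsf5 and Srsf6 were lower after 80 µg. For Srsf5 the high-dose libraries all lay below the low-dose ones, and it differed by -0.54 ± 0.14 (adjusted p = 0.00419). Srsf6 measured 895, 805 and 794 after 0.8 µg and 614, 631 and 762 after 80 µg, without overlap, and differed by -0.31 ± 0.09 (adjusted p = 0.023). Srsf5 missed the threshold without 80 µg replicate 1 (-0.47). Srsf6 missed it with edgeR (-0.29) and limma-voom (-0.28), and without 0.8 µg replicate 1 (-0.25) or 80 µg replicate 1 (-0.25) or 2 (-0.26).

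**Figure D5:**
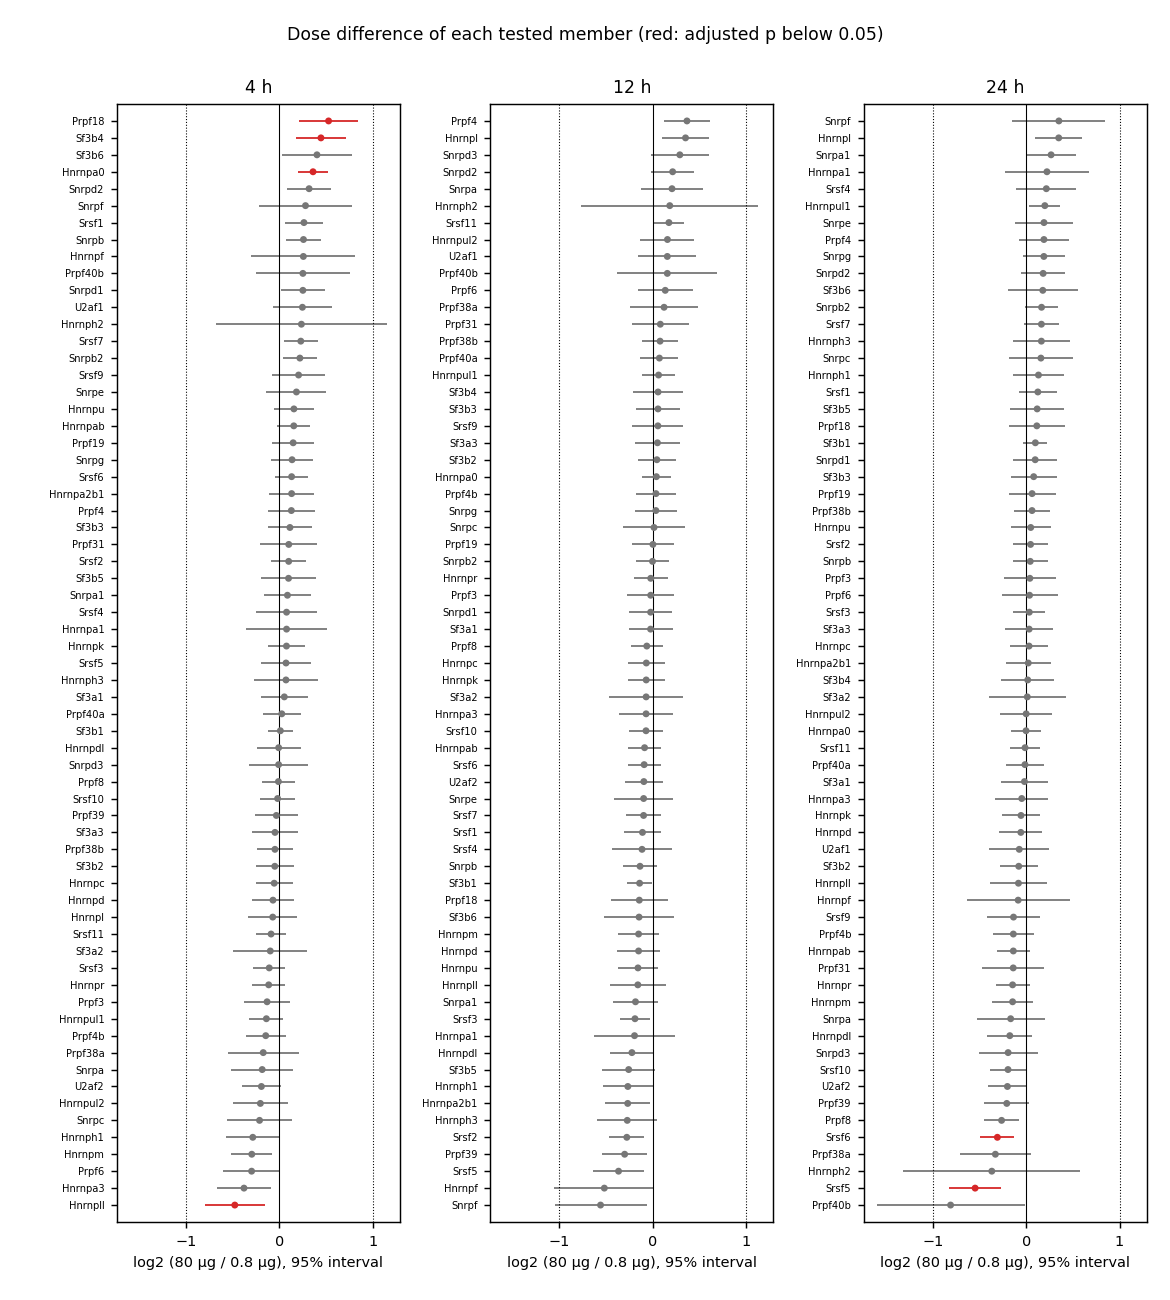
Difference between 80 and 0.8 µg on the log2 scale (horizontal axis, unshrunken estimate with its 95% interval) for each of the 65 tested genes at 4, 12 and 24 h, ordered by size, with red for an adjusted p below 0.05 and dotted lines at 1 and -1. Nearly all intervals lie between the dotted lines: 64, 62 and 63 of 65.

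A missed threshold does not show equal expression, so the intervals set the limit. The 95% interval of the unshrunken log2 difference lay within 1 in either direction for 64 of 65 genes at 4 h, 62 at 12 h and 63 at 24 h. The exceptions were Hnrnph2 at every time, Hnrnpf and Snrpf at 12 h and Prpf40b at 24 h. For the largest risers the intervals were narrow: the difference of Snrpd1 was 0.25 (95% interval 0.02 to 0.49) at 4 h, -0.02 (95% interval -0.26 to 0.21) at 12 h and 0.10 (95% interval -0.14 to 0.34) at 24 h. That of Hnrnpab was 0.15 (95% interval -0.02 to 0.33), -0.09 (95% interval -0.26 to 0.09) and -0.14 (95% interval -0.31 to 0.04) in the same order. For these genes a 2-fold dose difference thus lay outside the interval at all 3 times. Prpf40b at 24 h, at -0.81 (95% interval -1.60 to -0.02), left more room.

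Whether the dose difference changes with time was tested by the interaction of dose and time over the 18 immunised libraries. Of 65 genes tested, 0 passed, where 10.4% of all genes did. DESeq2's likelihood ratio test gave 13 at an unadjusted p under 0.05, beside 21.5% of all genes, and edgeR also gave 0. The smallest adjusted p-values were 0.0511 for Srsf6, 0.0528 for Hnrnpa0 and 0.0804 for Srsf5. Between 0 and 6 genes passed when single libraries or replicate numbers were left out, with 6 without 0.8 µg replicate 3 of 12 h, 5 without replicate 3 throughout, 4 without 0.8 µg replicate 3 of 24 h, 3 without 80 µg replicate 3 of 12 h, 2 without its replicate 1 or without 80 µg replicate 3 of 24 h, and at most 1 in the others.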

How the data were processed

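CD4+ T cells of 21 mice were profiled by QuantSeq 3′ mRNA sequencing, 1 library a mouse. The authors merged 4 lanes, trimmed the reads, aligned them with STAR 2.5.2a to GRCm38 (mm10) and counted reads per gene with HTSeq; the deposited count table holds these whole-number counts. The sources used here do not give the annotation release, the strand setting or whether molecular identifiers were counted. The deposited rlog table holds log2 values made by the authors with DESeq2 after genes under 10 reads were removed. It served for the name rule and the heatmap.

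From the counts, 15300 genes with at least 10 counts in all entered 1 DESeq2 1.42.0 model (R 4.3.3) with a coefficient per group. Two-sided Wald tests gave 13 comparisons, with Benjamini-Hochberg adjustment over all genes tested. Log2 fold changes carry a normal prior, and intervals come from unshrunken estimates. The interaction of dose and time was a likelihood ratio test on 18 libraries. The fits were tested on simulated data. Alternatives used edgeR 4.0.16, limma 3.58.1, other size factors, filters and left-out libraries.

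Replicates are separate mice. No 2 libraries within a group were duplicates, and pairs across groups were not checked for this. Library totals (2352800 to 6244279 counts) limit the precision of low genes. The splicing genes, the lists and the markers were chosen with earlier results of these data known. The text names fixed representatives of each role, the largest changes in each comparison and the smallest interaction p-values among genes averaging 20 or more normalised counts. Sf3a2, Hnrnpul1, Hnrnph2, Snrpert, Srsf12 and others named beside small counts were added after their values were seen. Overlaps with neighbouring genes were read from the GENCODE annotation of GRCm38, and promoter windows are from RefSeq.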

Additional observations from a re-analysis of the deposited data

Results flagged for a closer look

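Some splicing genes stood on opposite sides of the control at successive times of the same dose, and the DESeq2 test of the difference between those times passed. Single genes were not searched for outlying libraries, since groups hold 3 libraries each, and no explanation was tested.

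Prpf40b, a relative of the yeast U1 snRNP protein Prp40, went from 0.96 above control at 12 h to -0.99 at 24 h after 0.8 µg, a difference of -1.96 (adjusted p = 1.05e-08). After 80 µg it went from 1.11 to -1.76, a difference of -2.87 (adjusted p = 7.43e-16). Srsf6, an SR protein, went from 0.42 at 12 h to -0.24 at 24 h after 80 µg, a difference of -0.655 (adjusted p = 9.49e-12), and the value at 24 h was lost in part of the alternatives.

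Hnrnpl, a splicing repressor that binds CA repeats, stood at -0.46 at 4 h and 0.42 at 12 h after 80 µg, a difference of 0.88 (adjusted p = 2.04e-10). Prpf6, of the tri-snRNP, stood at -0.42 and 0.34 at the same times and dose, a difference of 0.77 (adjusted p = 3.19e-06). Prpf38b went from 0.43 at 4 h to -0.29 at 12 h after 0.8 µg, a difference of -0.71 (adjusted p = 5.87e-12).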

How the results depend on the processing

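Of 496 differences of single genes that passed the DESeq2 test, 403 kept direction and threshold in every alternative, 93 lost the threshold in at least 1 and 0 reversed. Library totals as size factors ended 24 of them, fitting only the samples compared 17, edgeR 7, limma-voom 6 and TMM factors 1. Library totals shifted the median of all genes by -0.14 (0.8 and 80 µg at 4 h), -0.12 and -0.23 (24 h), 0.15 and 0.12 (4 to 12 h) and -0.13 and -0.19 (12 to 24 h).

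Counts of called genes moved most with the fold limit. By the adjusted p alone the dose comparisons gave 4 genes at 4 h and 2 at 24 h, the comparisons with control 59 (0.8 µg, 4 h), 54 (0.8 µg, 24 h) and 54 (80 µg, 24 h), 4 to 12 h gave 31 and 29, and 12 to 24 h gave 45 and 44. Library totals gave 1 gene from 4 to 12 h after 80 µg, 12 and 17 from 12 to 24 h and 2 for the interaction. Fitting only the samples compared gave 1 gene from 4 to 12 h after 80 µg, and no low count filter gave 1 for the interaction. With libraries left out, the counts were 0 to 1 and 0 to 3 from 4 to 12 h after 0.8 and 80 µg, 6 to 10 and 5 to 10 from 12 to 24 h, and 0 to 6 for the interaction. The causes were not tested.

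Replicate numbers did not pair the mice: same-numbered libraries correlated at -0.20 to 0.21, and 9 of 21 fitted best with their own number. A replicate block left 41 genes called after 80 µg at 4 h and 9 from 12 to 24 h, each as without it, and ended 3 single-gene results, Hnrnph1 after 80 µg at 4 h among them. Depth limits Srsf12 and Snrpert, and sort gate and time cannot be told apart.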
